A study of Mus musculus with 6 samples.

Results

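Transcript levels of 7 mouse coactivator genes were described here: Ep300, Crebbp, Ncoa1, Ncoa2, Ncoa3, Kat2a and Kat2b. They were chosen by gene symbol as known partners of MN1 or of VP16-type activation, with earlier results of these data known. On the array, 20 of the 34945 probe sets that are assigned to exactly 1 gene named them, and they made up 7 of the 18193 measured genes. The values came from 6 Affymetrix Mouse430_2 arrays, 2 for each of 3 groups, on the authors' log2 RMA scale (background-subtracted, quantile-normalised and summarised over the probes of a set).

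All cells were C57BL6 mouse marrow. For the MN1 group (n = 2 arrays), donor mice had received 5-fluorouracil (150 mg/kg, 4 days), and their marrow was kept for 48 hours with the cytokines IL6, IL3 and SCF. It was then infected with the gammaretroviral vector pSF91-MN1-IRES-GFP and given to syngeneic recipients, and cells carrying GFP were isolated by flow cytometry 4 weeks after transplantation. The MN1VP16 group (n = 2) was made in the same way with pSF91-MN1VP16-IRES-GFP; the labels do not describe this construct further. The Gr1Mac group (n = 2) held marrow cells positive for the myeloid surface antigens Gr1 and CD11b. Its labels name no vector but repeat the protocol of the other groups, so whether these cells saw 5-fluorouracil, culture or transplantation is not settled. Since the labels do not say whether an array stands for 1 mouse or a pool, the p-values reflect the scatter of these arrays alone, part of which may be technical.

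Transcription factors bind DNA but rely on coactivators to open chromatin and to reach RNA polymerase. The related proteins p300 (Ep300) and CBP (Crebbp) are large scaffolds that acetylate histones and are docked by many blood cell factors, among them MYB. The p160 proteins encoded by Ncoa1, Ncoa2 and Ncoa3 are recruited by ligand-bound nuclear receptors, such as retinoic acid receptors, and in turn bring in p300 and CBP. Kat2a (Gcn5) and its relative Kat2b (Pcaf) are acetyltransferases of the SAGA and ATAC complexes. MN1 binds p300 and the Ncoa3 protein, and the VP16 activation domain of herpes simplex virus contacts p300/CBP, Gcn5-containing complexes and Mediator.

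The arrays carried differences that the groups share in part. Xist, transcribed in female cells, read 12.36 and 12.59 log2 units on the MN1 arrays. It read 5.53 and 5.84 on the MN1VP16 arrays and 10.44 and 5.83 on Gr1Mac arrays 1 and 2, while the Y-linked Kdm5d showed the opposite pattern. The vectors therefore cannot be told apart from this split except through the Gr1Mac arrays. Xist on the Kdm5d-high arrays reached 5.84, and 3 Y-linked genes on the other arrays reached 4.05. The higher value served as a guide to background, chosen with these values known. The first principal component of the brighter control features put both MN1 arrays and MN1VP16 array 1 on one side and MN1VP16 array 2 and both Gr1Mac arrays on the other. The control BioDn showed this split, at 10.66, 10.30 and 10.65 against 8.28, 8.89 and 8.67, while the median of these features did not (11.80 to 12.63 against 11.70 to 12.06). Itgam, which encodes CD11b, read 10.95 and 10.92 in Gr1Mac, 9.44 and 8.88 in MN1VP16 and 7.67 and 6.95 in MN1. It was thus highest in the group sorted for CD11b, a sort that does not set the order of the other groups. No single-gene probe set named Ly6g, part of the Gr1 antigen. The only probe set of Mn1 stayed between 3.63 and 4.92 on all arrays, under the guide, and so did not check the vectors.

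The first comparison asked how the coactivators differed between MN1 cells and Gr1Mac cells. Kat2a was higher in MN1, while Ncoa1, Ncoa3 and Crebbp were lower. By limma with Benjamini-Hochberg adjustment over all genes, 1 of 7 rose and 3 of 7 fell, where 17.3% of all genes rose and 12% fell, 29.3% in all. The median difference of the 7 genes was -0.61 log2 units, against -0.06 over all genes. The MN1 and Gr1Mac ranges did not overlap for any of the 7 genes, with 1 above and 6 below, as was so for 66.8% of all genes (30.9% above and 35.8% below). In bulk samples such as these, fewer cells of a type and less RNA per cell cannot be told apart.

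**Figure D1:**
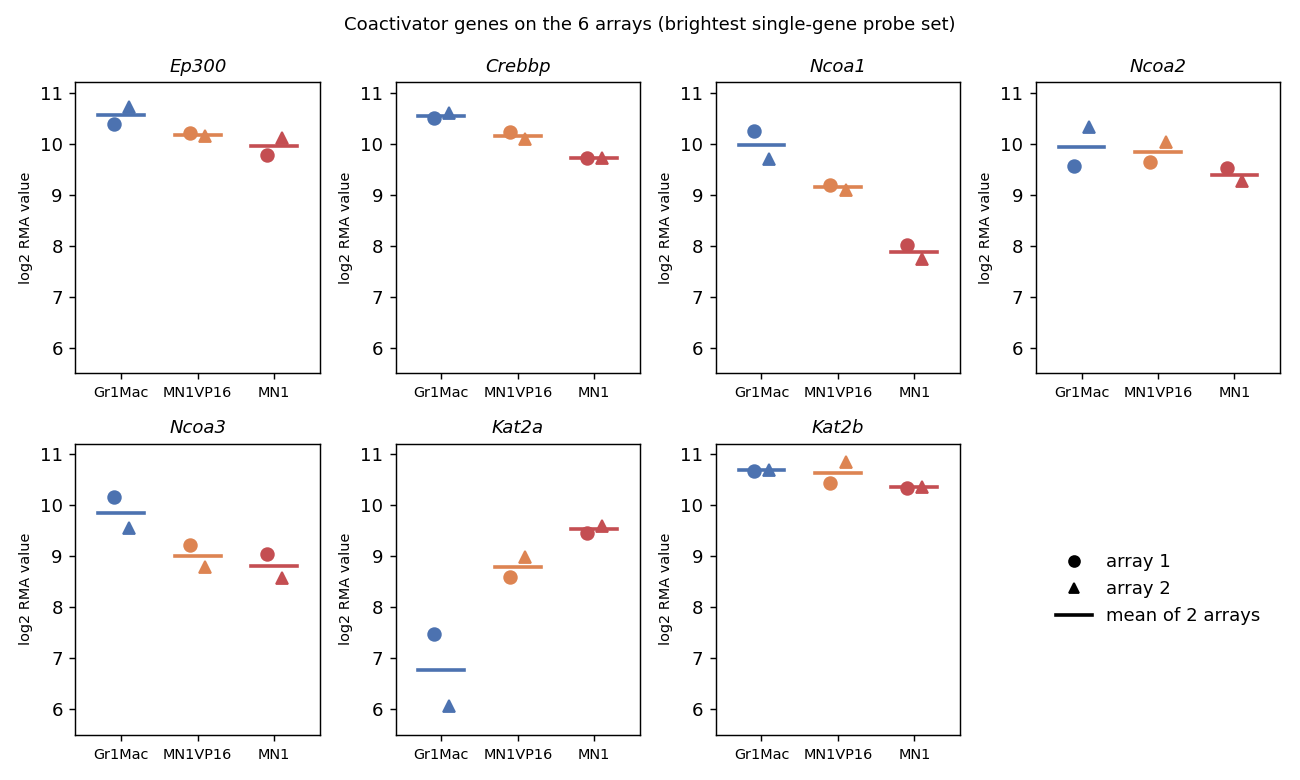
Log2 RMA value (y axis) of each coactivator gene by group (x axis), from its brightest single-gene probe set; circles are array 1, triangles array 2, and bars the mean of 2 arrays. Kat2a rises from 6.06 and 7.47 in Gr1Mac to 9.45 and 9.59 in MN1, Ncoa1 runs the other way, and in all 7 panels the MN1VP16 mean lies between the other 2 means; heights of different genes are not comparable.

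Among the p160 genes, Ncoa1 showed the largest fall of the 7 genes. It read 8.01 and 7.73 log2 units on MN1 arrays 1 and 2 against 10.25 and 9.69 on the Gr1Mac arrays. Every MN1 reading was below every Gr1Mac reading by at least 1.68. Ncoa1 was 4.28-fold lower in MN1 (95% interval 2.89 to 6.33; -2.10 ± 0.23 log2 units, SE; limma adjusted p = 0.00245). This call held under each of the 16 alternative settings, some of which are the same fit, with adjusted p-values from 0.00113 to 0.0455. A second Ncoa1 probe set, 1418594_a_at, read 7.78 on both MN1 arrays and 10.32 and 9.40 in Gr1Mac, a fall of 4.24-fold (limma adjusted p = 0.00491 over all probe sets). The third, 1443397_at, had no group mean above the background guide.

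Ncoa3, whose protein is a direct MN1 partner, read 9.03 and 8.57 in MN1 and 10.15 and 9.54 in Gr1Mac. The groups were separate, by a gap of 0.51 log2 units that was smaller than the spread within Gr1Mac. Ncoa3 was 2.07-fold lower (95% interval 1.26 to 3.38; limma adjusted p = 0.0408). The call was lost without MN1 array 1 (adjusted p = 0.0684), MN1 array 2 (0.217) or Gr1Mac array 1 (0.146), as well as with the mean of its probe sets (0.0860) and with the control feature split as a term (0.136). Its dimmer probe set, 1422737_at, differed by -0.55 ± 0.29 log2 units and was not called (adjusted p = 0.229).

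Ncoa2 was not called on its brightest probe set. It read 9.51 and 9.27 in MN1 and 9.55 and 10.33 in Gr1Mac, where array 1 lay only 0.04 above MN1 array 1. The difference was -0.55 log2 units (95% interval -1.28 to 0.17; limma adjusted p = 0.229). On the probe sets 1435234_at and 1446827_at Ncoa2 fell, by 0.62 and 0.79 log2 units (limma adjusted p = 0.0445 and 0.0282 over all probe sets), and the mean of its 4 probe sets was called too (adjusted p = 0.0395). The fourth, 1450458_at, stayed under the guide in every group.

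Of the scaffold acetyltransferases, Crebbp fell. It read 9.72 and 9.71 in MN1 and 10.51 and 10.59 in Gr1Mac, so that the arrays within each group lay close together and the groups far apart. Crebbp was 1.78-fold lower (95% interval 1.38 to 2.30; limma adjusted p = 0.0100). The probe sets 1436983_at and 1434633_at fell likewise, by 0.73 and 0.75 log2 units (adjusted p = 0.0421 and 0.0404). Its dimmest probe set, 1459804_at, read 5.86 and 5.70 in MN1 against 3.85 and 5.73 in Gr1Mac, around the guide and with overlapping groups, and gave a difference of 0.99 ± 0.74 (SE) that was not called (adjusted p = 0.393). The gene's call was lost without MN1 array 1 (adjusted p = 0.0608) or array 2 (0.0755), with the control feature split as a term (0.105), and when the dim probe set entered the mean of all 4 (0.352). The probe set with the largest variance is that dim one.

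Ep300 has a single probe set, which read 9.77 and 10.12 in MN1 and 10.39 and 10.72 in Gr1Mac. Both MN1 arrays were lower, but the gap of 0.27 between the groups was smaller than the distance between the arrays of either group. The difference of -0.61 log2 units (95% interval -1.10 to -0.12) missed the threshold (limma adjusted p = 0.0679). Ep300 and Crebbp thus had intervals that overlap over much of their length, and whether they differ in response was not tested.

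Of the related genes Kat2a and Kat2b, only Kat2a was called. Kat2a read 9.45 and 9.59 in MN1 and 7.47 and 6.06 on Gr1Mac arrays 1 and 2. The Gr1Mac arrays stood well apart from each other, yet both lay at least 1.98 below MN1. Kat2a was 6.76-fold higher in MN1 (95% interval 3.17 to 14.4; limma adjusted p = 0.00686). This call held in 15 of 16 alternative settings, some of which are the same fit, and was lost with the control feature split as a term (adjusted p = 0.0743). Its size depended on the Gr1Mac arrays, at 3.46 log2 units without array 1 and 2.05 without array 2. The probe set 1422972_s_at rose as well, from 5.39 and 4.68 in Gr1Mac to 7.45 and 7.46 in MN1. Its Gr1Mac readings lay under the background guide, so the rise is given as at least 3.08-fold (adjusted p = 0.00245 over all probe sets).

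The remaining Kat2a probe set, 1422971_at, showed much less. It read 8.14 and 8.01 in MN1 and 7.24 and 7.91 in Gr1Mac, and its difference of 0.50 log2 units (95% interval -0.08 to 1.08) was not called (adjusted p = 0.188). The 3 probe sets of Kat2a therefore differed in size but not in sign.

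Kat2b read 10.33 and 10.36 in MN1 and 10.67 and 10.68 in Gr1Mac. The arrays of each group were close together, and the difference of -0.33 log2 units (95% interval -0.79 to 0.13) was not called (limma adjusted p = 0.254). The dimmer probe set 1457809_at read 6.16 and 6.50 in MN1 and 7.55 and 7.33 in Gr1Mac, a fall of 1.11 log2 units (adjusted p = 0.0455), and 1450821_at stayed under the guide. On the same array, Kat2a minus Kat2b was -0.88 and -0.77 in MN1 and -3.20 and -4.62 in Gr1Mac. On the brightest probe sets, the balance of these genes' readings thus moved by 3.09 log2 units towards Kat2a. This shift was not tested. It does not depend on the scaling of the arrays, but it does on the probe set, as Kat2a 1422971_at differed by only 0.50.

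**Figure D2:**
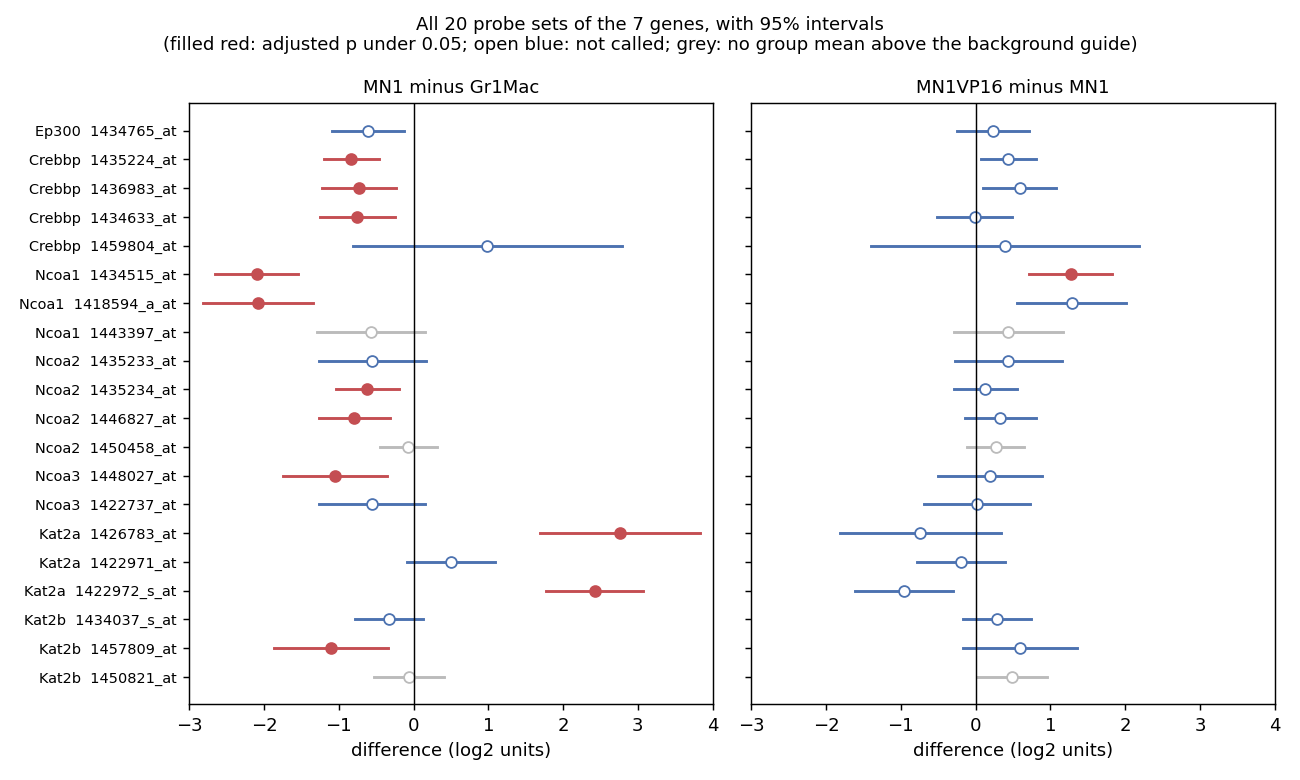
Difference in log2 units (x axis) for all 20 probe sets of the 7 genes, with limma's 95% interval, for MN1 minus Gr1Mac (left) and MN1VP16 minus MN1 (right); filled red points passed an adjusted p under 0.05, open blue points did not, and grey points had no group mean above the background guide of 5.84. On the left, 9 probe sets are lower and 2 Kat2a probe sets are higher; on the right only Ncoa1 1434515_at is called.

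Over all 20 probe sets, 9 fell and 2 rose in MN1, against 11.6% and 15% of all single-gene probe sets, 26.5% in all. A group mean above the background guide was present for 17 of the 20. The scaling of the arrays mattered for the counts: the median over the 18193 genes was 0.26 log2 units higher on the MN1 than on the Gr1Mac arrays, although medians over all table lines were close (5.36 to 5.43). Shifting the arrays to a common gene median moved the share of rises among all called genes from 59% to 38.3%. After that shift 13.7% of all genes rose and 22% fell, 35.7% in all. The shift lowered the difference of every gene alike and moved the median difference over all genes from -0.06 to -0.32 log2 units. Relative to the common median, Ncoa1 differed by -2.36, Ncoa3 by -1.30, Crebbp by -1.09 and Kat2a by 2.50 log2 units, all still called. Ep300 was then called lower too, at -0.87 (limma adjusted p = 0.0237). The larger falls and the added Ep300 call go with that lowering of all genes.

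Markers of mature and immature cells moved with these genes. Of 8 measured neutrophil markers 6 fell in MN1, and of 6 monocyte markers 4 fell, while 7 of 7 stem and progenitor, 5 of 6 erythroid and 4 of 5 mast cell and basophil markers rose. The summed level of the neutrophil markers, as log2 of the summed linear values, was 16.72 and 16.14 in MN1 against 17.37 and 17.36 in Gr1Mac. That of the stem and progenitor markers was 14.50 and 14.59 against 10.67 and 10.84. Monocyte markers summed to 11.00 and 10.87 against 14.17 and 13.41. Erythroid markers summed to 15.00 and 15.43 against 10.82 and 10.21, and those of mast cells and basophils to 14.46 and 14.94 against 8.67 and 8.06. The monocyte factor Klf4 was under the background guide on both MN1 arrays and Cd34 on both Gr1Mac arrays. Of the megakaryocyte and platelet markers 1 of 4 rose and 0 fell, with sums of 10.47 and 10.27 against 8.37 on both Gr1Mac arrays. Of the T and NK cell markers 1 of 5 fell and 0 rose, with sums of 8.19 and 8.22 against 9.38 and 9.23. Of the B cell markers 1 of 5 fell and 0 rose, and their sums overlapped, at 8.21 and 7.42 against 8.64 and 7.51. The part of these cell types in the coactivator differences was not tested.

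The 250 bases before the annotated start of Ncoa1 and Crebbp, which fell together, and of Kat2a, which rose, are shown to set their base composition side by side. They come from RefSeq promoter windows of build GRCm38.p6, which held 5 of the 7 genes, all but Ncoa2 and Ncoa3. The 3 printed genes were picked for being called. Capitals mark matches on either strand to a GC box (GGGCGG) or a CRE half-site (TGACG), of which the full CRE is the binding site of CREB, the factor after which CBP is named. Ncoa1 lies at chr12:4477183-4477432, Crebbp at chr16:4213405-4213654 and Kat2a at chr11:100712468-100712717, all on the minus strand.
Ncoa1: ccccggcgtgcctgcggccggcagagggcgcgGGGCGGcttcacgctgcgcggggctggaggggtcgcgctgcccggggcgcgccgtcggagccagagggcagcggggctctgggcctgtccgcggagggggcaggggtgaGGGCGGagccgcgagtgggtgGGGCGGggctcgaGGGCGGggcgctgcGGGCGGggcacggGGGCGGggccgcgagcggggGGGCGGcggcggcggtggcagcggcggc
Crebbp: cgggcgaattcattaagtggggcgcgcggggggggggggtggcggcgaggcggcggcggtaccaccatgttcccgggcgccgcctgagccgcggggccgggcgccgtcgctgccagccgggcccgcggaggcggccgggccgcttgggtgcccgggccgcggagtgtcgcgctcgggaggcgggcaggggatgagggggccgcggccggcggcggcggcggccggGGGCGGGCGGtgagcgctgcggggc
Kat2a: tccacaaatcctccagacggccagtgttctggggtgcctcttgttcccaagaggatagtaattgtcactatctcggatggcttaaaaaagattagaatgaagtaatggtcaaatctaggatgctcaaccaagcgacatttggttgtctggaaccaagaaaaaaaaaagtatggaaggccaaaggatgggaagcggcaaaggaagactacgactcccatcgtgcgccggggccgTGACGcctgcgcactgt
The Ncoa1 window held 7 GC box matches and the Crebbp window 2 overlapping ones, while the Kat2a window held none and 1 CRE half-site. A GC box was present in 32.7% and a CRE half-site in 17.8% of all 32851 windows of this length. The Ncoa1 and Crebbp windows were 85.6% and 84% G and C with 40 and 44 CpG pairs, against 48.8% and 11 for Kat2a and medians of 52.4% and 6 over all windows. None of the 3 windows had a CCAAT box (CCAAT), an E-box (CACGTG) or an ETS site (CCGGAA), found in 33.8%, 6.02% and 12% of windows. Of the genes not called, Ep300 had 1 GC box, 25 CpG pairs and 73.2% G and C. Kat2b, not called and with a difference of -0.33, had windows at 2 starts with 0 GC boxes and 40.8% and 48.4% G and C. They held 6 and 5 CpG pairs, and the first held 1 CRE half-site and 1 CCAAT box. In G and C the Kat2b windows were closer to Kat2a than to Ncoa1 and Crebbp. These matches describe the letters of the windows only.

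The second comparison set MN1VP16 cells against Gr1Mac cells, which serve as the control in the first comparison too. No coactivator passed the threshold: limma called 0 of 7 genes, against 5.77% of all genes (3.66% higher and 2.11% lower), with 4 of 7 at an unadjusted p under 0.05, as were 23.7% of all genes. The differences ran from -0.85 log2 units for Ncoa3 to 2.02 for Kat2a. Kat2a came closest. It read 8.59 and 8.98 in MN1VP16, above both Gr1Mac readings by at least 1.12, and was 4.05-fold higher (95% interval 1.90 to 8.65; limma adjusted p = 0.0579). Without Gr1Mac array 1, the brighter of the control arrays for this gene, the difference was 2.72 log2 units. The Xist split as a term gave the same value. That array is the only Xist-high one of these 2 groups, so both settings are the same fit here. Of the 16 alternative settings, 5 called Kat2a, these 2 among them. The others were the mean of its probe sets (limma adjusted p = 0.0297), the filter on the dimmest 40% of genes (0.0409) and limma's trended robust prior (0.0469). Kat2a was not called with the replicate block (limma adjusted p = 0.0744) or with only the arrays compared (0.106). Its probe set 1422972_s_at was called on its own, at least 1.58-fold higher (adjusted p = 0.0369 over all probe sets). It was the only one of the 20 called, against 5.44% of all probe sets (3.12% higher and 2.31% lower).

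The p160 genes Ncoa1 and Ncoa3 lay below both Gr1Mac arrays in MN1VP16 without being called. Ncoa1 read 9.19 and 9.09, a difference of -0.83 log2 units (95% interval -1.39 to -0.26; adjusted p = 0.0963), and was called once the arrays were shifted to a common median (-1.03, adjusted p = 0.0403). Ncoa3 read 9.21 and 8.78, a difference of -0.85 (95% interval -1.56 to -0.14; limma adjusted p = 0.148). Ncoa2, at 9.63 and 10.02, overlapped with Gr1Mac, and its difference of -0.11 had an interval from -0.84 to 0.61.

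Crebbp read 10.23 and 10.08 and Ep300 10.21 and 10.14 in MN1VP16, all below the Gr1Mac readings. Their differences were close in size, -0.39 (95% interval -0.76 to -0.02; limma adjusted p = 0.188) and -0.38 log2 units (95% interval -0.87 to 0.11; adjusted p = 0.324). Kat2b, at 10.43 and 10.84, spanned the Gr1Mac readings, with a difference of -0.04 (95% interval -0.50 to 0.42). Ranges did not overlap for 5 of the 7 genes (1 above, 4 below), against 50.1% of all genes (24.8% above, 25.2% below). The median over the genes was 0.21 log2 units higher in MN1VP16. Shifting the arrays to a common gene median moved the share of rises among all called genes from 63.4% to 35.9%. It also moved the median difference over all genes from -0.00051 to -0.21 log2 units. Itgam alone of 8 neutrophil markers, 0 of 6 monocyte markers and Cd3d alone of 5 T and NK cell markers fell in MN1VP16. Of the other lists, 4 of 7 stem and progenitor, 2 of 6 erythroid and 2 of 5 mast cell and basophil markers rose. Their part was not tested. The summed monocyte markers read 14.27 and 13.62 in MN1VP16, close to Gr1Mac.

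**Figure D3:**
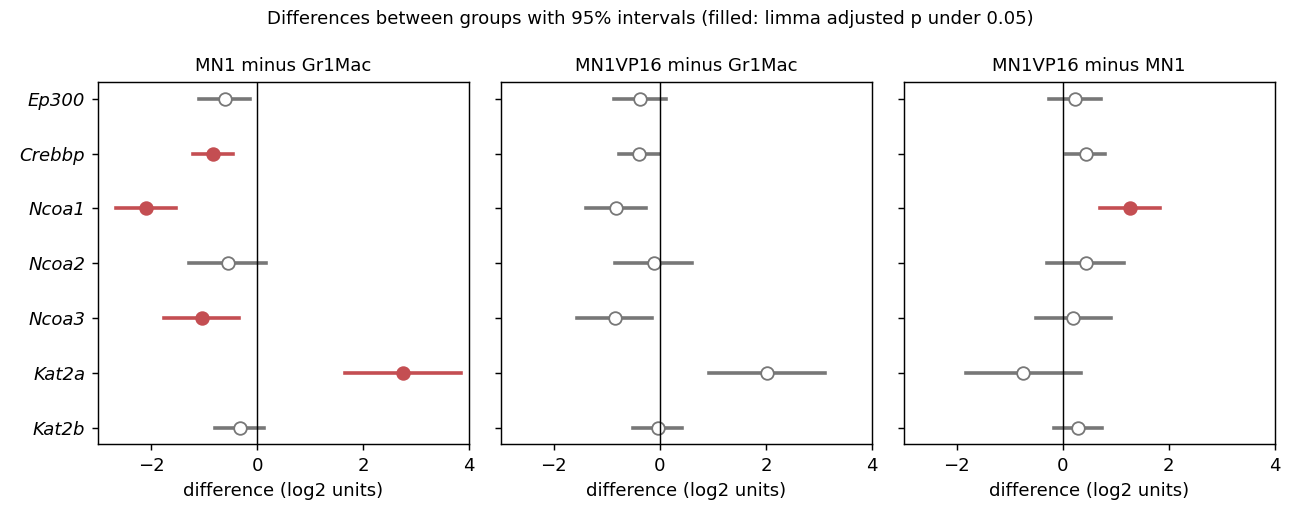
Difference in log2 units (x axis) of each coactivator gene in the 3 comparisons, with limma's 95% interval; filled red points passed an adjusted p under 0.05 and open grey points did not. Kat2a, Ncoa1, Ncoa3 and Crebbp are called in MN1 minus Gr1Mac, none in MN1VP16 minus Gr1Mac and Ncoa1 in MN1VP16 minus MN1; the comparisons share arrays and are not independent.

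The third comparison asked how the coactivators differed between the vectors. Ncoa1 was the only one called, and it was higher in MN1VP16. Its readings of 9.19 and 9.09 lay above the MN1 readings of 8.01 and 7.73 by at least 1.08. Ncoa1 was 2.42-fold higher (95% interval 1.63 to 3.57; limma adjusted p = 0.0461), so 1 of 7 genes rose and 0 fell, against 1.15% and 2.7% of all genes, 3.85% in all. The probe set 1418594_a_at gave 2.43-fold and missed the threshold (adjusted p = 0.0790 over all probe sets). Of the 20 probe sets 1 rose and 0 fell, against 0.913% and 2.34% of all probe sets, 3.26% in all.

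The Ncoa1 call depended on single arrays. It was lost without MN1 array 1 (adjusted p = 0.0891), MN1 array 2 (0.284), MN1VP16 array 1 (0.121) or MN1VP16 array 2 (0.123), with differences from 1.13 to 1.41 log2 units. With the Xist split as a term the difference was 1.83 (adjusted p = 0.225), and with the control feature split it was 1.32 (adjusted p = 0.123). The probe set with the largest variance was not called either (adjusted p = 0.0771). The mean of its 3 probe sets gave a smaller difference, 1.00 (adjusted p = 0.0295). Of 16 alternative settings, 9 kept the call, but these hold repeats. For this comparison, fitting only the arrays compared and leaving out either Gr1Mac array are the same fit. The control feature split is likewise the same fit as leaving out MN1VP16 array 2.

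The other 6 genes were not called by limma. Crebbp was 0.44 log2 units higher in MN1VP16 (95% interval 0.07 to 0.81; limma adjusted p = 0.163), with both readings above both MN1 readings. Ncoa2 was 0.44 higher (-0.29 to 1.16), Kat2b 0.29 higher (-0.17 to 0.75), Ep300 0.23 higher (-0.25 to 0.72) and Ncoa3 0.20 higher (-0.51 to 0.91). Kat2a was the one gene with a lower mean in MN1VP16, by 0.74 (95% interval -1.83 to 0.36; limma adjusted p = 0.407), and its ranges were separate. Ranges did not overlap for 6 of 7 genes (5 above, 1 below), against 59.7% of all genes (30.5% above, 29.2% below). With the Xist split as a term, the differences of Ep300, Ncoa2 and Kat2a changed sign (-0.10, -0.34 and 0.67 log2 units, none called). In this comparison 5 of 6 monocyte markers, Itgam alone of 8 neutrophil markers and Cd79a alone of 5 B cell markers rose in MN1VP16, while 3 of 6 erythroid markers, Kit alone of 7 stem and progenitor markers and Gata1 alone of 5 mast cell markers fell. Their part was not tested.

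Across the groups, the MN1VP16 mean lay between those of MN1 and Gr1Mac for all 7 genes, an order seen in 59% of all genes. The order was Gr1Mac, MN1VP16, MN1 from high to low for 6 genes and the reverse for Kat2a. How far along MN1VP16 stood varied: 81.1% of the way from Gr1Mac to MN1 for Ncoa3, 73.2% for Kat2a, 62.0% for Ep300, 47.4% for Crebbp, 39.3% for Ncoa1, 20.4% for Ncoa2 and 12.4% for Kat2b. The order held with any 1 array left out for 4 of the 7 genes. Ncoa2 lost it without MN1VP16 array 1 or Gr1Mac array 2 (0.082 and 0.27 log2 units above Gr1Mac), and Kat2b without MN1VP16 array 1 (0.17 above Gr1Mac). Ncoa3 lost it without MN1 array 2 or MN1VP16 array 1 (MN1VP16 minus MN1 of -0.034 and -0.016). For most genes these places rest on neighbours that limma did not separate. MN1VP16 and Gr1Mac were not separated for any gene, and MN1VP16 and MN1 only for Ncoa1.

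The other genes of the coactivator system were taken from 9 lists with 172 distinct genes, of which 160 were measured. In MN1 minus Gr1Mac, 50 of the 160 were called, against 29.3% of all genes. Counts after the shift to a common median are to be read against 13.7% of all genes higher and 22% lower. Other nuclear receptor coactivators rose in 9 of 18 and fell in 2 (7 and 2 after the shift to a common median), with a median difference of 0.66 log2 units. Pprc1, a coactivator of nuclear respiratory factors, rose by 3.08 ± 0.33 log2 units (SE; limma adjusted p = 0.00235), from 7.32 and 6.31 in Gr1Mac to 9.77 and 10.01 in MN1. The arginine methyltransferases Carm1 and Prmt1, which work with p160 proteins, were among the rises, and Trip4 fell by 1.12. The methyltransferase Prmt2 was 4.35-fold lower in MN1VP16 than in MN1 (limma adjusted p = 0.0237), and Prmt1 fell there too.

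Partner subunits of Kat2a in SAGA and ATAC rose in 7 of 23 (Tada1, Tada2a, Sgf29, Taf5l, Eny2, Zzz3 and Yeats2) and fell in 0, with a median of 0.36; the share called, 30.4%, was near that of all genes. Eny2, a subunit of the SAGA deubiquitinase module, read 9.03 and 9.35 in MN1 and 7.02 and 7.20 in Gr1Mac, a 4.21-fold rise (limma adjusted p = 0.00168). It was 2.87-fold higher in MN1VP16 as well (adjusted p = 0.0191). Once the arrays were shifted to a common median, 6 SAGA and ATAC subunits rose and 2 fell. Other lysine acetyltransferases rose in 3 of 10 (Hat1, Elp3 and Gtf3c4), Elp3 by 2.45 log2 units, and fell in 0, a share at that of all genes (30% against 29.3%), and after the shift 3 rose and 3 fell.

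Mediator, the complex that carries activator contacts to RNA polymerase, was called in 4 of 31 subunits. In MN1, 2 rose and 2 fell, a share of 12.9% against 29.3% of all genes, with a median of 0.16. The subunit Med25, the contact of VP16 in Mediator, was among the rises with Cdk8 (1.40 log2 units), and Med31 (-1.35) and Cdk19 fell. After the shift, 1 rose and 4 fell. The count of 4 became 7 without Gr1Mac array 1, 1 without MN1 array 2 and 0 with the control feature split as a term. In MN1VP16 minus MN1, 0 of 31 were called by limma.

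Nuclear receptors, which recruit the p160 proteins, rose in 1 of 26 (Nr2c1) and fell in 3 (Rarg, Nr3c1 and Nr4a1), a share of 15.4% with a median of -0.23; after the shift 0 rose and 12 fell, where 13.7% and 22% of all genes did. Nr4a1, an orphan receptor induced by many stimuli, read 6.59 and 7.10 on the MN1 arrays, 8.79 and 9.03 with MN1VP16 and 9.93 and 9.26 in Gr1Mac cells. It fell 6.72-fold in MN1 (limma adjusted p = 0.00217) and was 4.17-fold higher in MN1VP16 than in MN1 (adjusted p = 0.0286). Corepressor complex genes, which oppose coactivators at the same receptors, rose in 3 of 8 and fell in 1 (1 and 2 after the shift), with Nrip1 5.76-fold higher and Lcor 1.92-fold lower in MN1.

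Factors that dock on CBP and p300 rose in 4 of 18 (Crem, Myb, Cited4 and Tcf3) and fell in 3 (Rela, Crtc2 and Creb3), with a median of 0.01; after the shift 3 rose and 6 fell. Myb, whose protein binds the KIX domain, read 12.83 and 12.76 on the MN1 arrays, 11.72 and 12.78 with MN1VP16 and 9.98 and 10.04 in Gr1Mac cells. It was 6.90-fold higher in MN1 and 4.74-fold higher in MN1VP16 than in Gr1Mac (limma adjusted p = 0.00308 and 0.0262). Crem was at least 2.51-fold lower in MN1VP16 than in MN1 (limma adjusted p = 0.0241). The genes listed as acetyl-lysine readers rose in 3 of 12 and fell in 2 (2 and 4 after the shift). The largest called changes on this list were Trim28 at 3.93-fold higher and Brpf3 at 2.09-fold lower. Whether each listed protein reads acetyl-lysine was not tested here.

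Deacetylases, which remove the mark these coactivators set, rose in 4 of 16 (Hdac2, Hdac3, Hdac7 and Sirt3) and fell in 2 (Hdac4 and Sirt7), with a median of 0.41; after the shift 2 rose and 3 fell. Hdac2 was 3.80-fold and 2.00-fold higher in MN1 and MN1VP16 than in Gr1Mac, and Hdac4 3.09-fold and 2.12-fold lower, each called by limma. Over all 9 lists, 9 genes were called in MN1VP16 minus Gr1Mac and 5 in MN1VP16 minus MN1, against 5.77% and 3.85% of all genes. Hat1 (2.09-fold) and Trim28 (2.35-fold) were among those higher in MN1VP16 than in Gr1Mac, as was Pprc1, while Trip4 and Med31 were lower. The counts of MN1VP16 minus Gr1Mac fell to 1 without either MN1 array, to 2 or 1 without MN1VP16 array 1 or 2 and to 0 without Gr1Mac array 2. Those of MN1VP16 minus MN1 fell to 0 without either MN1 array and to 2 or 1 without MN1VP16 array 1 or 2, and those of MN1 minus Gr1Mac to 29 and 21 without MN1 array 1 or 2. In MN1 minus Gr1Mac, leaving out MN1 array 1 or 2 left 5 or 4 of the 11 calls among other nuclear receptor coactivators and 3 or 2 of the 7 among CBP and p300 factors. It left 2 of the 5 calls among acetyl-lysine readers either way. Without MN1 array 2, 4 SAGA and ATAC subunits and 2 deacetylases were called. The 4 corepressor calls became 1 and 0 without MN1 array 1 and 2, 2 without either MN1VP16 array and 1 without Gr1Mac array 2.

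**Figure D4:**
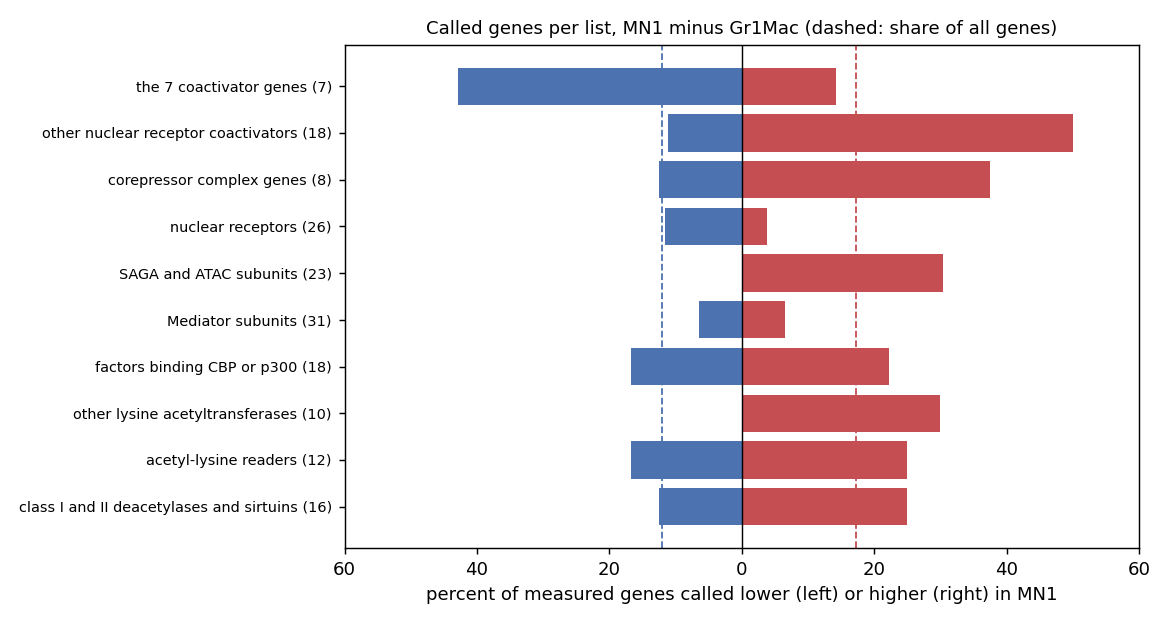
Percent of the measured genes of each list (number in brackets) that limma called lower (blue, left) or higher (red, right) in MN1 than in Gr1Mac; dashed lines mark the shares of all genes, 12% lower and 17.3% higher. The 7 coactivators have 3 lower and 1 higher, the other nuclear receptor coactivators 9 higher and 2 lower, and nuclear receptors and Mediator subunits 4 calls each.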

How the data were processed

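Per the labels' protocols, TRIZOL was used for extraction and Affymetrix's 3' IVT Express chemistry for labelling; priming from the poly(A) end makes the probe sets read transcript ends. The deposited table gives log2 values, which the authors obtained with RMA according to the submitters' processing notes (the version is not given in the sources used here). This summary compresses differences of dim genes. The number of arrays limits the precision.

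Of 45101 table lines, 64 were control features. GEO's platform annotation gave exactly 1 gene to 34945 probe sets, several to 932 and none to 9160, and the latter groups were left out. Gene numbers of 34741 probe sets matched RefSeq (GRCm38.p6), used for names and promoters, and 0 symbols changed. Where a gene had several probe sets, the one brightest on average over the 6 arrays stood for it, leaving 18193 genes.

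Limma 3.58.1 in R 4.3.3 (lmFit, eBayes) was run on the 6 arrays together, with group as its single factor (3 residual and 3.03 prior degrees of freedom), and checked on simulated data. P-values were adjusted by Benjamini-Hochberg over all genes, or over all single-gene probe sets for probe set values, and called under 0.05. Groups of 2 are too small for a permutation test of single genes to reach that threshold. Folds are 2 to the power of the log2 difference; where the dimmer mean was under 5.84, each dim array entered at the higher of 5.84 and its own reading ("at least").

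The members, lists and tests were chosen with earlier results of these data known. Named genes were the members with all their probe sets, Mn1, for each list and comparison the called gene with the largest rise and fall, and for each member the 3 genes nearest in profile. Other called genes were named after their values were seen. Alternatives covered the probe set choice, a filter on dim genes, the scaling, the prior, the arrays fitted, splits of the arrays and each array left out.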

Additional observations from a re-analysis of the deposited data

How the results depend on the processing

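Over 16 alternative settings and 7 genes (112 values a comparison), direction and side of the threshold stayed the same for 95 values of MN1 minus Gr1Mac, 99 of MN1VP16 minus Gr1Mac and 100 of MN1VP16 minus MN1. Some settings are the same fit for a given comparison, so these counts hold repeats. The control feature split was added after seeing the data. With it, 0 members rose and 1 fell in MN1 minus Gr1Mac, and 0 rose in MN1VP16 minus MN1. Genes called higher and lower in all were then 914 and 572 in MN1 minus Gr1Mac, 272 and 169 in MN1VP16 minus Gr1Mac, and 73 and 130 in MN1VP16 minus MN1; the related lists held 15, 2 and 1. Kat2b turned to 0.089 log2 units in MN1 minus Gr1Mac and 0.17 in MN1VP16 minus Gr1Mac, where Ncoa2 turned to 0.082. With the Xist split, 1 member rose in MN1VP16 minus Gr1Mac (1018 genes higher and 225 lower) and 0 in MN1VP16 minus MN1 (0 higher, 0 lower, 0 in the related lists). In the latter Ep300 turned to -0.10, Ncoa2 to -0.34 and Kat2a to 0.67.

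The mean of probe sets turned Crebbp to 0.018 in MN1VP16 minus Gr1Mac, where 1 member then rose, as also without the dimmest 40% of genes and with limma's trended robust prior. The probe set with the largest variance, for Crebbp a dim one, turned it to 0.99 in MN1 minus Gr1Mac and 1.38 in MN1VP16 minus Gr1Mac, and left 0 members higher in MN1VP16 minus MN1. Shifting the arrays to a common median gave 4003 genes lower in MN1 minus Gr1Mac, 946 lower and 1 member lower in MN1VP16 minus Gr1Mac, and 374 higher in MN1VP16 minus MN1. Fitting only the arrays compared gave 181 higher and 166 lower genes and 1 list gene in MN1VP16 minus Gr1Mac, and 104 higher in MN1VP16 minus MN1. Without probe sets that may match several transcripts, 5 list genes were called in MN1VP16 minus Gr1Mac. Causes were not tested.

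Leaving out 1 array leaves a group with 1, assumed to vary like the others. Genes called then ranged from 1519 to 3103 higher and 899 to 2097 lower in MN1 minus Gr1Mac, from 22 to 1018 higher and 27 to 225 lower in MN1VP16 minus Gr1Mac, and from 3 to 252 higher and 23 to 350 lower in MN1VP16 minus MN1. Members called ranged from 1 to 3 lower in MN1 minus Gr1Mac and from 0 to 1 higher in each of the others. List genes ranged from 21 to 52, from 0 to 8 and from 0 to 5 in that order. In MN1VP16 minus Gr1Mac, Kat2b ranged from -0.25 to 0.17 and Ncoa2 from -0.50 to 0.27, and in MN1VP16 minus MN1 Ncoa3 ranged from -0.034 to 0.43.

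Replicate numbers gave no sign of pairing the arrays. Deviations of same-numbered arrays correlated at -0.05 (MN1 and Gr1Mac), 0.08 (MN1VP16 and Gr1Mac) and -0.05 (MN1 and MN1VP16), which does not exclude pairing. With the replicate block, 327 genes were lower in MN1VP16 minus MN1 in place of 492, and Ncoa1 stayed called there (limma adjusted p = 0.0448). With 2 arrays a group, dim probe sets such as those under 5.84 carry little information.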

Other observations

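For each coactivator gene, the 3 genes with the most similar profile over the 6 arrays were sought among 9096 other genes whose mean level was at or above the median gene. Likeness was the root mean square distance between profiles, each centred on its own mean. Nearest to Kat2a were Tmem107, a transmembrane protein of the ciliary transition zone (0.06 log2 units), Mrps18b, a mitochondrial ribosomal protein (0.08), and Ahcy, which hydrolyses S-adenosylhomocysteine (0.12), against a median distance of 1.21. Tmem107 read 10.02 and 10.13 on the MN1 arrays, 9.11 and 9.40 with MN1VP16 and 7.94 and 6.63 in Gr1Mac cells. The gap between its Gr1Mac readings is part of the profile for which it was picked.

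Nearest to Ncoa1 were the aminopeptidase gene Rnpep (0.10), Nat8l, which makes N-acetylaspartate (0.11), and the lipid droplet protein gene Plin3 (0.13), against a median of 0.97. Rnpep read 8.88 and 8.35 on the MN1 arrays, 9.96 and 9.72 with MN1VP16 and 10.85 and 10.40 in Gr1Mac cells. For Crebbp they were Uhrf1bp1l (0.04), Zfp217 (0.05) and the ubiquitin ligase scaffold Cul3 (0.05), and for Ep300 Ube4a (0.05), BC052688 (0.07) and Rnf14 (0.08). Ncoa2 was nearest to Adamtsl2 (0.08), Fbxo11 (0.09) and Tbc1d15 (0.10), Ncoa3 to Mib2 (0.09), Sulf2 (0.10) and Tecr (0.12), and Kat2b to Tuba4a (0.04), Cep350 (0.05) and Sec22b (0.06). Among the 7 genes, Ep300 and Crebbp were the closest pair (0.16) and Ncoa1 and Kat2a the farthest (2.02). With 6 arrays in 3 groups, and small ranges for most of these genes, such distances are a description of these arrays.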
